A study of Mus musculus with 18 samples.

Results

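The 3 ubiquitin genes Ube3a, Ube2g2 and Arih1 give rise to 4 circular RNAs that were followed in mouse liver: 1 from Ube3a, 1 from Ube2g2 and 2 from Arih1, together 4 of the 434 circular RNAs in the deposited table. The Ube3a and Ube2g2 rows were taken by their position, and for Arih1 every row with both ends inside the gene was taken, which gave 2. Each library came from the liver of 1 male C57BL/6 mouse in week 22 of the experiment, which began at an age of 6 weeks, with 6 libraries in each of 3 groups. Control mice were given water by mouth and, 2 times a week, olive oil into the abdomen. CCl4 mice were given water and, as often, injections of carbon tetrachloride (CCl4), a liver poison used to set up a liver cancer model. CCl4+PZH mice received CCl4 too, and besides it Pien Tze Huang (PZH, written PTH in the sample labels), a Chinese patent medicine, by mouth each day. The tissue was whole liver, and how the 6 mice were picked from the 15 that started in each group is not given in the sources used here. Fewer cells of a type and less RNA per cell cannot be told apart in such samples.

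Ubiquitin is a small protein that is attached to other proteins, often to mark them for destruction by the proteasome. An activating enzyme charges it, a conjugating enzyme carries it, and a ligase picks the protein that receives it. Ube2g2 encodes a conjugating enzyme that serves the removal of misfolded proteins from the endoplasmic reticulum. Ube3a encodes a HECT ligase, a type that takes ubiquitin onto itself before passing it on, and loss of its maternal copy in neurons causes Angelman syndrome. Arih1 encodes an RBR ligase, which works together with cullin ligases. A circular RNA arises when the spliceosome joins the end of a segment back to its own beginning. It is counted by reads across that joint, so its level is not that of the host's messenger RNA or protein, which were not analysed here.

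Positions are those of the table in mouse build GRCm38, without strand. The Ube3a circular RNA lay at chromosome 7, 59240967 to 59247217, and spanned 6251 bp, or 7.61% of its gene. It began 12217 bp after the annotated start site and ended 25520 bp before the nearest end of Snhg14, the long non-coding RNA gene that holds the Ube3a antisense transcript. No other annotated gene spanned it, nor any of the other members. The Ube2g2 circular RNA lay at chromosome 10, 77630726 to 77630894. Its 169 bp made it the fifth shortest of the 434, whose median span was 4691 bp. The 2 Arih1 circular RNAs lay at chromosome 9, 59426123 to 59454469 (28347 bp, here called the longer) and 59436771 to 59454469 (17699 bp, the shorter). They shared 1 end, 31905 bp after the annotated start site, and their other ends lay 10648 bp apart. The longer one therefore holds the whole genomic interval of the shorter one. Exons and introns, and the sequences of the circular RNAs, were not analysed here.

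**Figure D1:**
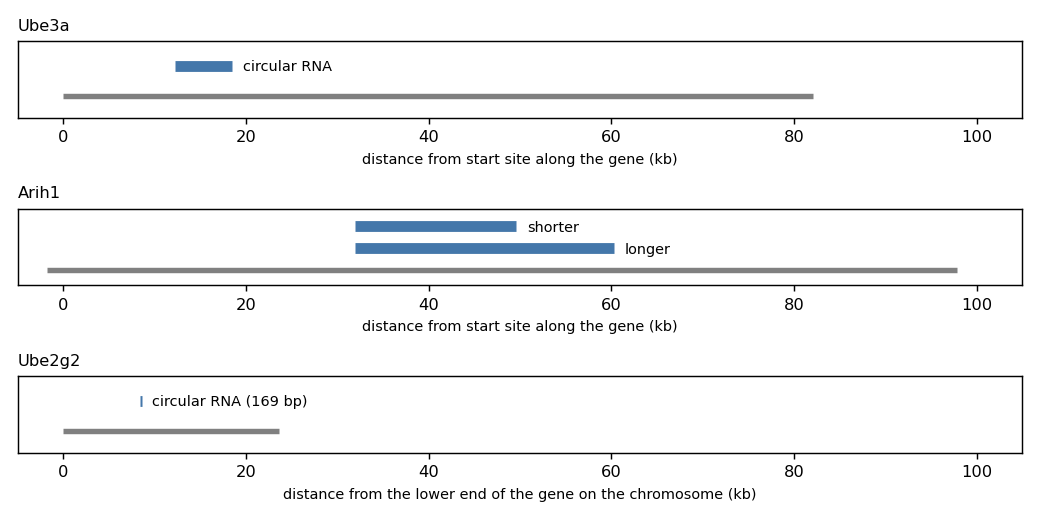
Position of the 4 circular RNAs (blue) within their host genes (grey), in kb from the annotated start site for Ube3a and Arih1 and from the gene's lower end on the chromosome for Ube2g2. The 2 Arih1 circular RNAs start at the same distance and end 10648 bp apart, while that of Ube2g2 spans 169 bp.

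Levels are given as deposited, in CPM (counts per 1e6, here back-splice reads set against a library total that the authors chose), and as the share of all back-splice reads of the table in the same library. Those reads could be recovered because each value was a whole multiple of the value of 1 read, and they numbered 900 to 2840 per library. Summed CPM ran from 40.4 in control 3 to 550 in control 4, so CPM and shares can rank libraries differently. Control 3 and CCl4 8 held the fewest reads (900 and 930), and controls 2 and 4 had the highest summed CPM. Controls 2, 3 and 4 also carry later accession numbers than the other 15 libraries. Intervals and limits for zeros cover counting error only, since copies made by PCR are not independent molecules. As a check of the tissue, 9 of 34 hepatocyte marker genes hosted circular RNAs in the table, among them Cyp1a2, Slco1b2 and Abcc2, while Alb, Ttr and Apoa1 hosted none.

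Ube3a gave the highest mean CPM of all 434 circular RNAs and the third highest mean share, 2.16% ± 1.42 (SD, n = 18). It ranked first in 6 of 18 libraries and within the first 10 in 15. In controls its level ran from 0 (control 3) through a median of 4.48 to 21.3 CPM (control 4), with control 2 at 20.5 CPM. In CCl4 livers it ran from 0 (CCl4 8) through 2.80 to 3.80 CPM. In CCl4+PZH livers it ran from 0.151 (CCl4+PZH 7) through 5.11 to 9.41 CPM. The 3 groups overlapped, and controls held both the highest values and a zero.

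The control mean of Ube3a rested on controls 2 and 4. The control mean was 8.76 ± 9.57 CPM, the CCl4 mean 2.58 ± 1.37 and the CCl4+PZH mean 5.01 ± 3.81 (SD, n = 6 each). As shares they were 2.61% ± 1.85, 1.60% ± 0.829 and 2.26% ± 1.45 (SD, n = 6 each). The CCl4 mean was thus 0.295 of the control mean in CPM and 0.614 of it in shares. Over all 18 libraries the coefficient of variation was 114% in CPM and 65.6% in shares.

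Ube3a was nearly missing in 3 libraries, 1 in each group. Control 3 gave 0 of 900 reads, and CCl4 8 gave 0 of 930. Taking 3 reads as the limit for a count of 0, these allow shares of up to 0.333% and 0.323%, and the upper ends of the 95% Wilson intervals are 0.425% and 0.411%. CCl4+PZH 7 gave 1 read of 1460, a share of 0.0685% (95% Wilson interval 0.0121 to 0.387%). In the other 15 libraries the share lay between 1.17% (CCl4+PZH 1, interval 0.70 to 1.96%) and 5.30% (control 2, interval 4.20 to 6.68%). The 5 other CCl4 livers were close together, from 1.48 to 2.27%.

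**Figure D2:**
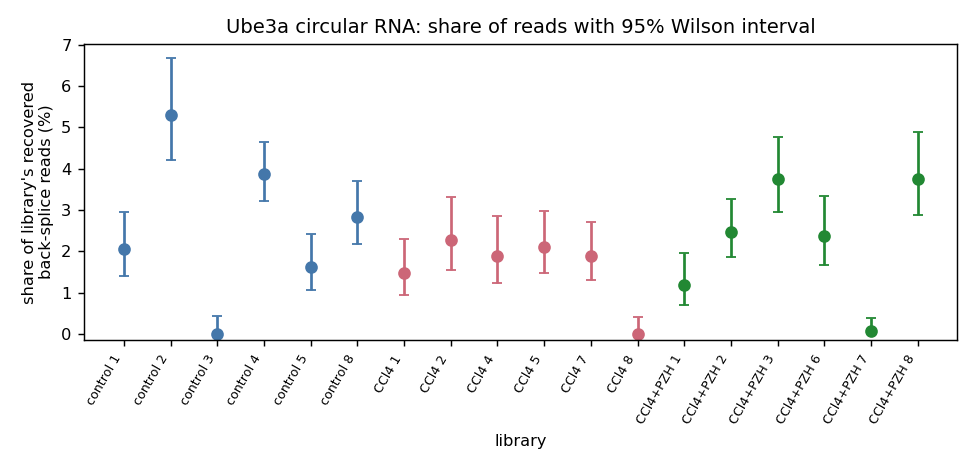
Share of each library's recovered back-splice reads that came from the Ube3a circular RNA, in percent, for the 18 libraries; points are shares and bars are 95% Wilson intervals. Control 3, CCl4 8 and CCl4+PZH 7 lie at or below 0.0685%, and the other 15 lie at 1.17% or above.

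Ube2g2 was measured at a far lower level, with 52 reads in all, and was above 0 in 5 of 6 controls, 2 of 6 CCl4 livers and 5 of 6 CCl4+PZH livers. In controls it ran from 0 (control 5) through a median of 0.441 to 2.14 CPM (control 2). In CCl4 livers it was listed at 0 in CCl4 1, 2, 4 and 7, with 0.0919 CPM for CCl4 8 and 0.489 CPM for CCl4 5. In CCl4+PZH livers it ran from 0 (CCl4+PZH 7) through 0.463 to 1.20 CPM (CCl4+PZH 8). The CCl4 values lay low within the range of the other groups, and all groups overlapped. Mean levels were 0.770 ± 0.881, 0.0969 ± 0.196 and 0.541 ± 0.402 CPM in controls, CCl4 and CCl4+PZH livers (SD, n = 6 each). By the same limit of 3 reads, a zero in these CCl4 libraries allows 0.203 to 0.269% of the reads, while the mean share in controls was 0.238%. Single zeros therefore do not separate the groups at this depth.

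The longer Arih1 circular RNA was the only member above 0 in 6 of 6 controls. It ran there from 0.0898 (control 3) through a median of 0.544 to 1.496 CPM (control 1). In CCl4 livers it was above 0 in 2 of 6, namely CCl4 4 at 0.686 CPM and CCl4 7 at 0.262 CPM. In CCl4+PZH livers it was above 0 in 3 of 6, at 0.735 CPM in CCl4+PZH 3, 0.486 in CCl4+PZH 1 and 0.148 in CCl4+PZH 6. Group means were 0.718 ± 0.532, 0.158 ± 0.279 and 0.228 ± 0.312 CPM (SD, n = 6 each). The groups overlapped, since CCl4 4 lay above 4 of the controls.

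The shorter Arih1 circular RNA was above 0 in 9 of 18 libraries, the lowest number that occurs in the table. In controls it ran from 0 (controls 3 and 5) through a median of 0.119 to 0.581 CPM (control 4). Of the CCl4 livers, only CCl4 7 had a value above 0, 0.0874 CPM, which is 1 read. In CCl4+PZH livers it ran from 0 (CCl4+PZH 1 and 6) through 0.465 to 1.47 CPM (CCl4+PZH 3). Group means were 0.187 ± 0.223, 0.0146 ± 0.0357 and 0.515 ± 0.554 CPM (SD, n = 6 each). Pooled over the groups, CCl4+PZH livers gave 21 of 8888 reads and CCl4 livers 1 of 7386. Of the 21 reads, 10 came from CCl4+PZH 3.

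**Figure D3:**
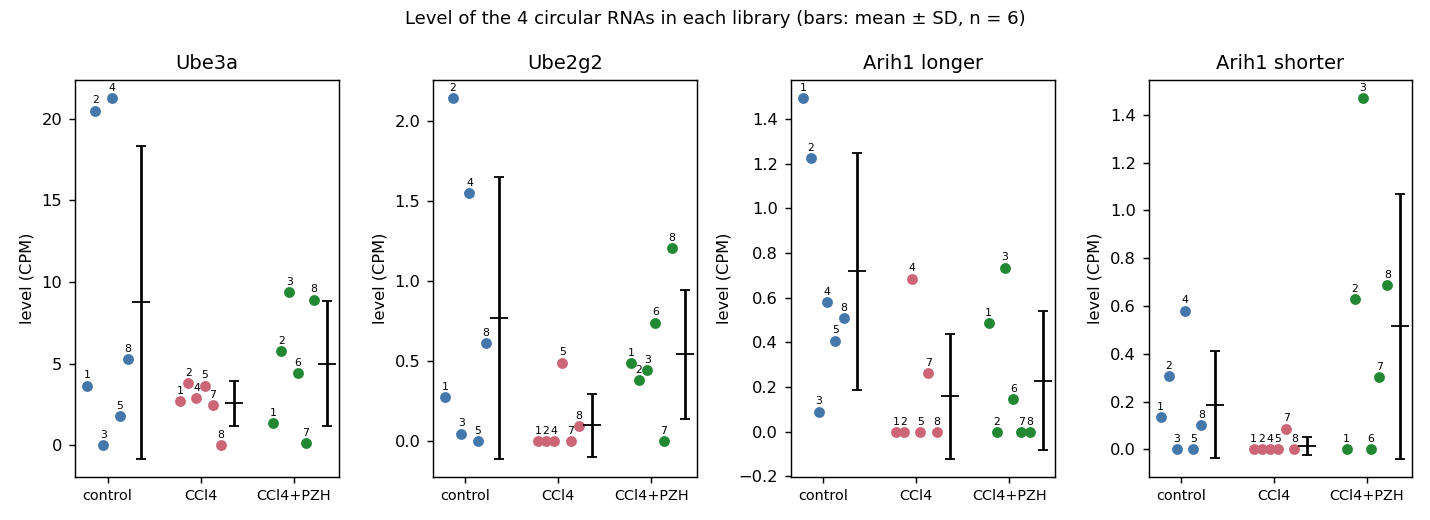
Level in CPM of the 4 circular RNAs in each library, by group; numbers beside the points are mouse numbers, and bars give mean ± SD (n = 6). Vertical scales differ between panels. In CCl4 livers, Ube3a stays at or below 3.80 CPM, and the other members are at 0 in 4 or 5 of 6.

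Most Arih1 reads came from the longer circular RNA in controls and CCl4 livers and from the shorter one in CCl4+PZH livers, and no comparison of the pair between groups passed its test (given in the next paragraph). In controls the longer circular RNA gave 30 of 36 Arih1 reads (83.3%), and it was the higher of the pair in 5 of 6 mice and equal in control 4. In CCl4 livers the pair gave only 9 reads, 8 of them from the longer one, and 4 of 6 mice had neither. In CCl4+PZH livers the longer one gave 11 of 32 reads (34.4%), and the shorter one was higher in 4 of 6 mice (2, 3, 7 and 8). Mice 2, 7 and 8 of that group had reads of the shorter one only (5, 2 and 4), which no control or CCl4 mouse had. The 4 CCl4 mice with neither could not show such a state. By the limit of 3 reads, the zero of the longer one allows 0.205% in mouse 7, above the shorter one's 0.137%. In mice 2 and 8 it allows 0.161 and 0.217%, below the shorter one's 0.268 and 0.289%.

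The difference between the pair was also compared within each mouse, which sets the 2 values of 1 library side by side. Because the pseudocount is fixed in CPM, the library total still enters where 1 of the pair is at 0: control 3, with 2 reads against 0, had 0.73, and CCl4+PZH 7, with 0 against 2, had −1.68. The longer minus the shorter, on the scale log2(CPM + 0.13655), averaged 1.39 ± 0.92 for controls, 0.57 ± 1.04 for CCl4 and −0.73 ± 1.96 for CCl4+PZH (SD, n = 6 each). CCl4+PZH against control differed by −2.13 (two-sided exact permutation p = 0.0433), which missed the threshold once adjusted for the 3 comparisons (adjusted p = 0.13). CCl4+PZH against CCl4 differed by −1.30 (exact permutation p = 0.165) and CCl4 against control by −0.82 (exact permutation p = 0.188), with an adjusted p of 0.188 for both. Of 16 alternatives for CCl4+PZH against control, 1 passed, that without CCl4+PZH 1 (−2.71, exact permutation, adjusted p = 0.039), the mouse with the highest value of its group (2.19). Without CCl4+PZH 2 the difference was −1.78 and without CCl4+PZH 8 it was −1.76 (exact permutation, adjusted p = 0.26 for both), and without control 1 it was −1.89 (adjusted p = 0.247). This contrast was chosen after the values had been seen, and mice with neither circular RNA enter it as 0.

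**Figure D4:**
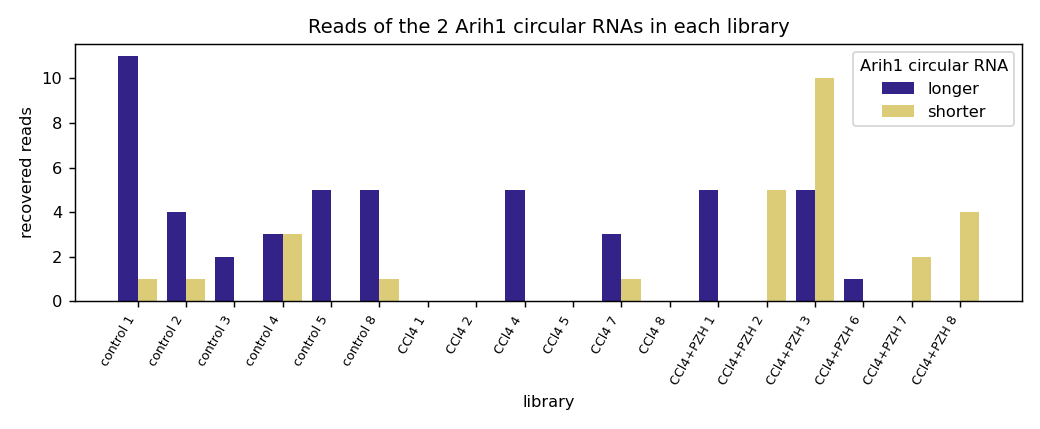
Recovered reads (vertical axis) of the longer and the shorter Arih1 circular RNA in each of the 18 libraries. The longer one is higher in 5 of 6 controls and the shorter one in 4 of 6 CCl4+PZH livers, while 4 of 6 CCl4 livers have neither.

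The comparison of CCl4 with control asks what differs in the liver cancer model. All 4 members had lower fitted values in CCl4, and 0 of 4 passed. The test was limma on log2(CPM + 0.13655), fitted on all 434 circular RNAs, and p-values were adjusted by Benjamini-Hochberg and held to 0.05. Over all 434 it called 0.461% higher and 0.23% lower. The longer Arih1 circular RNA had a log2 difference of −1.69 (SE 0.69, limma adjusted p = 0.296) and Ube2g2 one of −1.53 (SE 0.70, adjusted p = 0.415). Ube3a had −0.95 (SE 0.94, adjusted p = 0.811) and the shorter Arih1 circular RNA −0.86 (SE 0.59, adjusted p = 0.702). The median over the 4 was −1.24. Over all 434 it was −0.28, with 273 negative values. No member's groups were free of overlap, against 0.691% of the 434. Scaling each library to its reads in the table moved the median over all 434 to −0.03. On that scale the members had −1.56 (longer Arih1), −1.19 (Ube2g2), −0.48 (Ube3a) and −0.53 (shorter Arih1), with limma adjusted p from 0.252 to 0.874. Sizes also depended on the pseudocount. With 1 CPM the longer Arih1 circular RNA had −0.54 and Ube2g2 −0.57, and with 0.0341 CPM they had −2.81 and −2.39.

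The direction for Ube3a turned with the choice of controls. Without controls 2 and 4 its log2 difference of CCl4 against control was 0.31 (limma adjusted p = 0.979). With controls 1, 5 and 8 alone, which share the accession run of the CCl4 libraries, it was −0.85 (adjusted p = 0.902). For Ube2g2 the same sets gave −0.62 (adjusted p = 0.946) and −0.85 (adjusted p = 0.902). The longer Arih1 circular RNA had −1.45 (adjusted p = 0.546) and −1.92 (adjusted p = 0.374). The shorter one had −0.33 (adjusted p = 0.959) and −0.48 (adjusted p = 0.924). Without the 2 libraries of fewest reads, control 3 and CCl4 8, the values were −1.15 for Ube3a, −1.90 for Ube2g2, −1.88 for the longer and −1.04 for the shorter Arih1 circular RNA.

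Circular RNAs of marker genes had median shares that differed between these groups. The CCl4 ranges overlapped those of both other groups, and no test was run on them. Circular RNAs of hepatocyte markers took a median of 3.42% of control reads (1.87 to 4.12%), 1.65% of CCl4 reads (0.717 to 2.45%) and 2.23% of CCl4+PZH reads (2.01 to 3.29%). Of 10 macrophage markers only Adgre1 and Mertk were hosts, and theirs took 0.282% (0 to 0.53%), 1.12% (0.43 to 3.05%) and 0.601% (0.55 to 1.28%). Of 9 lymphocyte markers only Ikzf1 was a host, with 0.073% (0 to 0.176%), 0.317% (0 to 0.81%) and 0.366% (0.145 to 0.642%). Marker genes of stellate cells, endothelium and bile duct hosted 0. The part of these shares in the members' values was not tested.

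CCl4+PZH against CCl4 addresses the effect of the medicine in poisoned livers. All 4 members had higher fitted values in treated livers, and 0 of 4 passed limma, which called 0% of the 434 in either direction. The shorter Arih1 circular RNA had a log2 difference of 1.60 (SE 0.59, unadjusted p = 0.00686, limma adjusted p = 0.804), the second smallest p of the 434. Ube2g2 had 1.54 (SE 0.70, unadjusted p = 0.0273, limma adjusted p = 0.804), the ninth smallest. Ube3a had 0.74 (SE 0.94, adjusted p = 0.953) and the longer Arih1 circular RNA 0.30 (SE 0.69, adjusted p = 0.992). The median over the 4 was 1.14. Over all 434 it was 0.23, with 303 positive values. Groups overlapped for 4 of 4, and 0.23% of the 434 were free of overlap. Scaled to the reads of the table, the median over all 434 was 0.03, and the members had 1.37 (shorter Arih1), 1.37 (Ube2g2), 0.47 (Ube3a) and 0.23 (longer Arih1).

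Both comparisons use the same CCl4 libraries, so lower values there show in both. Without CCl4+PZH 3 the longer Arih1 circular RNA had −0.04 (limma adjusted p = 0.988). Without CCl4 8, whose Ube3a value was 0, the Ube3a difference of CCl4+PZH against CCl4 was −0.01 (limma adjusted p = 0.999). The differences of the shorter Arih1 circular RNA and of Ube2g2 were 1.23 to 1.94 and 1.28 to 1.94 over all single libraries left out. Their size depended on the pseudocount. With 1 CPM they were 0.50 and 0.47, and with 0.0341 CPM they were 2.60 and 2.53. On the recovered reads, edgeR with TMM gave 3.49 for the shorter Arih1 circular RNA (adjusted p = 0.694) and DESeq2 gave 3.45 (adjusted p = 0.645). Both tools work on reads without the pseudocount of 0.13655 CPM, so their values are on another scale than 1.60.

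CCl4+PZH against control sets treated livers beside those that had no CCl4. Here the members split, with 2 positive and 2 negative values, and 0 of 4 passed limma, which called 0.23% of the 434 higher and 0% lower. The longer Arih1 circular RNA had a log2 difference of −1.39 (SE 0.69, unadjusted p = 0.0437, limma adjusted p = 0.763). The shorter had 0.74 (SE 0.59, adjusted p = 0.882), Ube3a −0.21 (SE 0.94, adjusted p = 0.988) and Ube2g2 0.00 (SE 0.70, adjusted p = 0.997). The median over the 4 was −0.10, and over all 434 it was 0.02. All 4 overlapped between groups, and 0.461% of the 434 did not. Without control 2, control 4, CCl4+PZH 1 or CCl4+PZH 7 the Ube3a value was positive, at 0.29, 0.30, 0.0063 and 0.48. Without control 1, 3 or 5, or CCl4+PZH 1, 3, 6 or 8, the Ube2g2 value was negative, from −0.40 to −0.0068. Without controls 2 and 4 together, Ube3a had 1.05 (limma adjusted p = 0.715) and Ube2g2 0.92 (adjusted p = 0.715). With controls 1, 5 and 8 alone, values were −0.11 for Ube3a, 0.68 for Ube2g2, −1.62 for the longer and 1.12 for the shorter Arih1 circular RNA. The median over all 434 moved too, to 0.37 without controls 2 and 4 and to 0.18 with controls 1, 5 and 8 alone.

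Over the 12 tests of the 3 comparisons, limma placed 0 members past the threshold and 5 values at an unadjusted p under 0.05. By comparison these were 2 for CCl4 against control, 2 for CCl4+PZH against CCl4 and 1 for CCl4+PZH against control, where 36, 24 and 22 of all 434 had such a p. The members were chosen with earlier results of these data known, and the 3 comparisons share libraries. The 5 values therefore cannot be read as an excess over the 434. The same holds for the members' medians and shared directions set beside those of all 434. On the recovered reads, edgeR placed 0 past the threshold and 1 at such a p, and DESeq2 0 and 2. Each library is from its own mouse per the labels, so the spread includes that between mice.

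**Figure D5:**
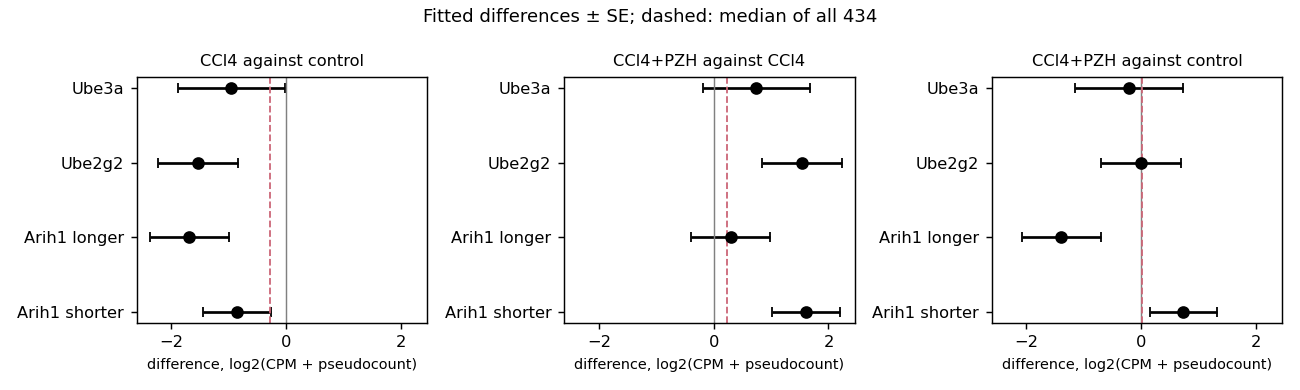
Fitted log2 differences with standard errors for the 4 circular RNAs in the 3 comparisons (18 libraries in 1 fit); the dashed line is the median over all 434. All 4 lie below 0 for CCl4 against control and above 0 for CCl4+PZH against CCl4, and 0 of the 12 values passed adjustment.

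The other genes of the ubiquitin system were taken from lists of 626 symbols, which include the 3 hosts and some ubiquitin-like modifiers. Besides the 4 members, the lists matched 21 circular RNAs from 19 genes. None of the 21 passed limma in any comparison, and 0 had an unadjusted p under 0.05, beside the 36, 24 and 22 of all 434. For CCl4 against control 8 were positive and 13 negative, with a median log2 of −0.29, close to the −0.28 of all 434. For CCl4+PZH against CCl4 the median was 0.31 (14 positive), and for CCl4+PZH against control 0.06 (12 positive), beside 0.23 and 0.02 over all 434. Ube2g2 was the only conjugating enzyme host on them. The lists are not complete, and at least 2 more ligase genes that they lack hosted circular RNAs, Rmnd5a and Kcmf1, found after the values were seen. For CCl4 against control, that of Rmnd5a had log2 −1.26 (unadjusted p = 0.0461, limma adjusted p = 0.535) and that of Kcmf1 −0.96 (unadjusted p = 0.152, adjusted p = 0.704).

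Among the other HECT and RBR ligases, hosts of circular RNAs included Nedd4l and Nedd4. Nedd4l, which regulates ion channels, had the highest mean at 1.24 ± 1.50 CPM (SD, n = 18). It stood at 2.24, 0.570 and 0.910 CPM in controls, CCl4 and CCl4+PZH livers (log2 −1.19 for CCl4 against control, limma adjusted p = 0.696). Nedd4 had the smallest p of the 21 in both comparisons with control. It was above 0 in 1 of 6 controls and in 4 of 6 livers of each other group, with log2 1.05 for CCl4 (limma adjusted p = 0.605) and 1.03 for CCl4+PZH (adjusted p = 0.763). Ube3a, at 5.45 ± 6.21 CPM (SD, n = 18), had the highest mean of all 25 circular RNAs of the lists.

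RING ligase hosts on the list were Rnf114 with 3 circular RNAs, Rnf169, Rnf214 and Brap. Rnf169, which acts at DNA breaks, was highest among them at 1.29 ± 0.936 CPM (SD, n = 18), with 1.26, 1.36 and 1.24 CPM in the 3 groups. Cullin ligase hosts on the list were Cul1, Dcaf8, Dcaf17, Dcun1d4, Fbxo8, Fbxw4, Fbxl17 and Asb3. Cul1, the scaffold of the SCF ligases, led them at 0.491 ± 0.477 CPM (SD, n = 18), with group means of 0.830 CPM (control), 0.319 (CCl4) and 0.325 (CCl4+PZH). Its log2 differences were −0.85 for CCl4 against control (limma adjusted p = 0.755) and −1.10 for CCl4+PZH against control (adjusted p = 0.804). Asb3, a substrate receptor, had the smallest p of the 21 for CCl4+PZH against CCl4 (log2 1.04, adjusted p = 0.804). Deubiquitinase hosts on the list were Mindy3, Usp3 and Zranb1, with Mindy3 at 0.537 ± 0.445 CPM (SD, n = 18) and log2 0.19 for CCl4 against control (limma adjusted p = 0.953). Psmd2, a proteasome subunit, was the only host of its list, at 0.132 ± 0.194 CPM (SD, n = 18; log2 −0.29, limma adjusted p = 0.862).

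Likeness to other circular RNAs was ranked by Spearman's rho between shares over the 18 libraries, as a description, since shares within a library depend on each other and many values are 0. Nearest to Ube3a were circular RNAs of the RNA helicase gene Ddx52 (rho 0.68, and 0.80 in CPM), Uimc1 (0.65, and 0.77) and Exoc3l2 (0.65, and 0.84). Nearest to Ube2g2 were those of Cnksr3 (0.80 on both scales), Ddx52 (0.63, and 0.65) and Ube3a itself (0.61, and 0.68). Among those nearest to the shorter Arih1 circular RNA were those of Cth, an enzyme of cysteine synthesis (0.62, and 0.76), and Ttc39c (0.60, and 0.69). In shares, the median rho with all others was 0.04 for Ube3a, 0.02 for Ube2g2 and 0.03 for the shorter Arih1 circular RNA. No such median was taken in CPM, so these are no baseline for the CPM values. Between the 2 Arih1 circular RNAs rho was −0.07 in shares and 0.25 in CPM. Between Ube3a and the longer one it was 0.02 and 0.35, and between Ube3a and the shorter one 0.59 and 0.68. Ube2g2 had 0.12 and 0.28 with the longer one and 0.31 and 0.45 with the shorter one.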

How the data were processed

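The authors deposited 1 table of CPM values for 434 circular RNAs in 18 libraries of ribosome-depleted liver RNA, read as pairs of 150 bp per the labels' protocols. The submitters' processing notes name FastQC 0.11.9, cutadapt 4.2, HISAT2 2.2.1, StringTie 2.1.5, Bowtie2 2.5.1 and build GRCm38. Not given in the sources used here were the caller of circular RNAs, the library total and the filters. Dividing by the value of 1 read gave a whole number (tolerance 0.1) for 7812 of 7812 values, so reads were recovered (25803 in all). Every row was above 0 in at least 9 libraries. Hosts were assigned from RefSeq GRCm38.p6 as the gene that holds both ends, protein-coding and shortest first (429 of 434). Start sites were read from its promoter table, which matched Ube3a and Arih1.

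Values of log2(CPM + 0.13655), where the pseudocount is the median over libraries of the smallest value above 0, were fitted in R 4.3.3 with limma 3.58.1, with 3 group means, an intensity trend, two-sided p and Benjamini-Hochberg adjustment over all 434. No member was filtered out. The fit was tested on simulated data. The paired mouse contrast of Arih1 used exact permutation tests. Alternatives were other pseudocounts, a filter, scalings, array weights, edgeR 4.0.16, DESeq2 1.42.0 (positive-count size factors), a replicate block and libraries left out. Another 2 were added after seeing the data: control 3 and CCl4 8 left out, and controls 2 and 4 left out. The ubiquitin and marker lists and the members were chosen with earlier results of these data known. Named from the lists were every host, the highest mean of each list and the smallest p of each comparison, and for likeness the 3 nearest to each circular RNA the rule gives by position. Of these, 2 genes are not reported here. Python 3.11.15 with pandas 2.3.3, scipy 1.17.1, statsmodels 0.14.6 and matplotlib 3.10.9 was used.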

Additional observations from a re-analysis of the deposited data

Results flagged for a closer look

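In the 12 groups of 6 values (4 circular RNAs in 3 groups), the highest or lowest mouse was set apart where Dixon's ratio, its distance from the next mouse over the whole range, was above the 95% critical value. That happened in 3, where chance gives 0.6 for normally distributed values, and all 3 were among CCl4 livers. Ube3a was listed at 0 CPM in CCl4 8, and the next lowest CCl4 liver had 2.45 CPM. Ube2g2 stood at 0.489 CPM in CCl4 5, and the next highest had 0.0919 CPM. The shorter Arih1 circular RNA stood at 0.0874 CPM, which is 1 read, in CCl4 7 and at 0 in the other 5, a pattern that always passes this rule.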

How the results depend on the processing

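Each member was fitted under 32 alternatives in each comparison, except that the filter of 12 or more libraries above 0 removed both Arih1 circular RNAs. Of the 378 values, 0 passed the threshold (lowest limma adjusted p = 0.136) and 354 kept their direction. Part of the 354 could not turn, so that number does not measure stability. The filter, and leaving out libraries of the group outside a comparison, give the same difference as the main fit. Direction turned in 24, all of Ube3a, of Ube2g2 for CCl4+PZH against control, and of the longer Arih1 circular RNA in 1 case. Ube3a for CCl4 against control turned to 0.306 without controls 2 and 4. Ube3a for CCl4+PZH against CCl4 turned to −0.0133 without control 3 and CCl4 8, and single libraries left out gave −0.0133 to 1.44. Ube3a for CCl4+PZH against control turned to 0.0119 with the pseudocount at 0.0341 CPM, 0.193 with quantile normalization, 0.349 with array weights and 1.05 without controls 2 and 4, and single libraries left out gave −1.16 to 0.482. Ube2g2 for CCl4+PZH against control turned to −0.10 with a pseudocount of 1 CPM, −0.395 in edgeR with implied totals, −0.673 with controls 2, 3 and 4 only and −0.318 without control 3 and CCl4 8; single libraries gave −0.40 to 0.412. The longer Arih1 circular RNA for CCl4+PZH against CCl4 ran from −0.0404 to 0.677 with single libraries left out. The cause was not tested.

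Over all 434, CCl4 against control had 3 calls. It had 1 with a pseudocount of 1 CPM, with the filter of 12 or more libraries above 0, in edgeR with implied totals and with controls 2, 3 and 4 only. It had 5 with values scaled to the table's reads, in edgeR with TMM and without control 3 and CCl4 8, and 1 to 6 with single libraries left out (1 without control 1, 4 or 8 or CCl4 1, 2, 7 or 8, and 6 without control 3). CCl4+PZH against control had 1 call, 0 under the filter, 2 in both edgeR fits and without controls 2 and 4, 3 with array weights, and 1 to 3 with single libraries left out (3 without control 2). CCl4+PZH against CCl4 had 0 in every fit run.

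Of 13 same-numbered pairs of libraries, 0 had a correlation of deviations above 0.1 (−0.154 to 0.0794). Pairs of different numbers were not set beside them, so this cannot decide whether mouse numbers pair the libraries. With the replicate block, 1 was called for CCl4 against control, and Ube3a for CCl4+PZH against control turned to 0.376. The Arih1 contrast kept its direction under 16 alternatives per comparison and passed in 1 (adjusted p 0.039 to 0.26 for CCl4+PZH against control). With 28 reads of the shorter Arih1 circular RNA, 49 of the longer and 52 of Ube2g2, few reads limit the precision of all 3.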

Other observations

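Zeros among abundant circular RNAs occurred beyond Ube3a. Of the 10 with the highest mean share, each was listed at 0 in at least 1 library, with 27 zeros in all. The one with the highest mean share, 2.29%, at chromosome 3, 5860581 to 5860757, had no assigned host and was at 0 in 7 libraries. The one in Rmdn2, of mean share 2.23%, was at 0 in 1 library, and that in Gramd1c, the fourth by mean share, in 3. Control 3 and CCl4 8 each listed 3 of these 10 at 0, Ube3a among them. By the limit of 3 reads, a zero in control 3 allows a share of up to 0.333%, while the other 5 controls had Ube3a shares of 1.61% or more. Whether such zeros are true absences was not tested.

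The 4 members together gave 338 control reads, 138 CCl4 reads and 262 CCl4+PZH reads. Their summed share had a median of 3.29% (0.333 to 6.25%), 2.22% (0.108 to 2.38%) and 2.86% (0.205 to 4.80%). Most of it was Ube3a except in control 3, CCl4 8 and CCl4+PZH 7, which gave the low ends. There Ube3a gave 0 of 3, 0 of 1 and 1 of 3 member reads.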
